A study of Mus musculus with 9 samples.

Results

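The genes described here are 8 growth factor ligands that act on hepatocytes, stellate cells, mural cells and cells of the myeloid and blood lineages: Hgf, Pdgfa, Pdgfb, Pdgfd, Igf1, Hbegf, Csf1 and Kitl. They were chosen by name from the 52636 rows of the deposited count table, without a threshold, and all 8 passed the filter on low counts that left 14583 genes. The libraries came from mouse liver endothelium, sorted as live CD31-positive, CD45-negative cells that had bound a VE-cadherin antibody given to the living animal. The 4 control libraries carry the genotype label Wild Type. The other 5 carry the label Erg and Fli1 double knockout, naming a pair of ETS transcription factors active in endothelium and in blood cells. Both groups are described as treated with tamoxifen and as taken at day 7 after it. The labels do not name the Cre line, the deleted exons, the strain or the age of the animals. They also do not say whether every library came from its own animal. The p-values set group differences against the spread between these libraries, which may therefore be technical in part. The comparison asks which of these ligand transcripts differ where Erg and Fli1 are the genes targeted.

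Endothelial cells of the liver secrete factors that act on their neighbours, which is often called angiocrine signalling. HGF is made as an inactive single chain, is cut by serine proteases, and then binds the receptor MET on hepatocytes. PDGF ligands act on PDGF receptors of stellate and mural cells, where PDGF-B made by endothelium recruits pericytes. HB-EGF binds EGF receptor family members after it is shed from the membrane, IGF-1 circulates on binding proteins, CSF-1 keeps macrophages alive, and KIT ligand supports blood progenitors and mast cells.

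Library totals ran from 26791371 to 36401682 counts. Levels are given in CPM, counts scaled to a common library size with TMM factors, and a single count equalled 0.0260 to 0.0368 CPM. Values are in CPM, as mean ± SD, unless another scale or error is named. Of the targeted genes, Erg fell from 311.6 ± 17.8 (n = 4) to 142.9 ± 10.9 (n = 5), and Fli1 was higher, at 147.4 ± 22.5 against 100.1 ± 8.01. Because the level of Fli1 went against its label, the 5 are called libraries labelled knockout, and each direction is relative to that label. Whether targeted exons of Erg or Fli1 were lost was not tested, since the deposited values are per gene and not per exon. Neither the higher Fli1 nor the remaining Erg can therefore tell if the deletion took place. Cdh5 and Pecam1, which encode the proteins of the sort, lay at 2190 ± 113 and 1482 ± 97.9 in controls and at 2158 ± 193 and 1408 ± 164 in the libraries labelled knockout, and neither was called. Replicates 2 and 3 of the latter stood apart from replicates 1, 4 and 5 on the second principal component (17.7% of the variance), so several results are also given without them.

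Of the 8 ligands, Hgf and Pdgfa rose, Kitl and Pdgfd fell, and Pdgfb, Csf1, Hbegf and Igf1 did not pass the threshold, an adjusted p under 0.05 in edgeR. Over all genes tested 29.3% were called, 14.5% higher and 14.8% lower. Of all calls, 49.4% were higher, and 59.2% with scaling by library totals only. The 4 called ligands were also the 4 whose groups did not overlap, and groups did not overlap for 13.2% of all genes tested in the higher and for 13.8% in the lower direction. The ligands were chosen with earlier results of these data known, so the count is a description. In sorted bulk cells, fewer cells of a type and less RNA per cell cannot be told apart.

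**Figure D1:**
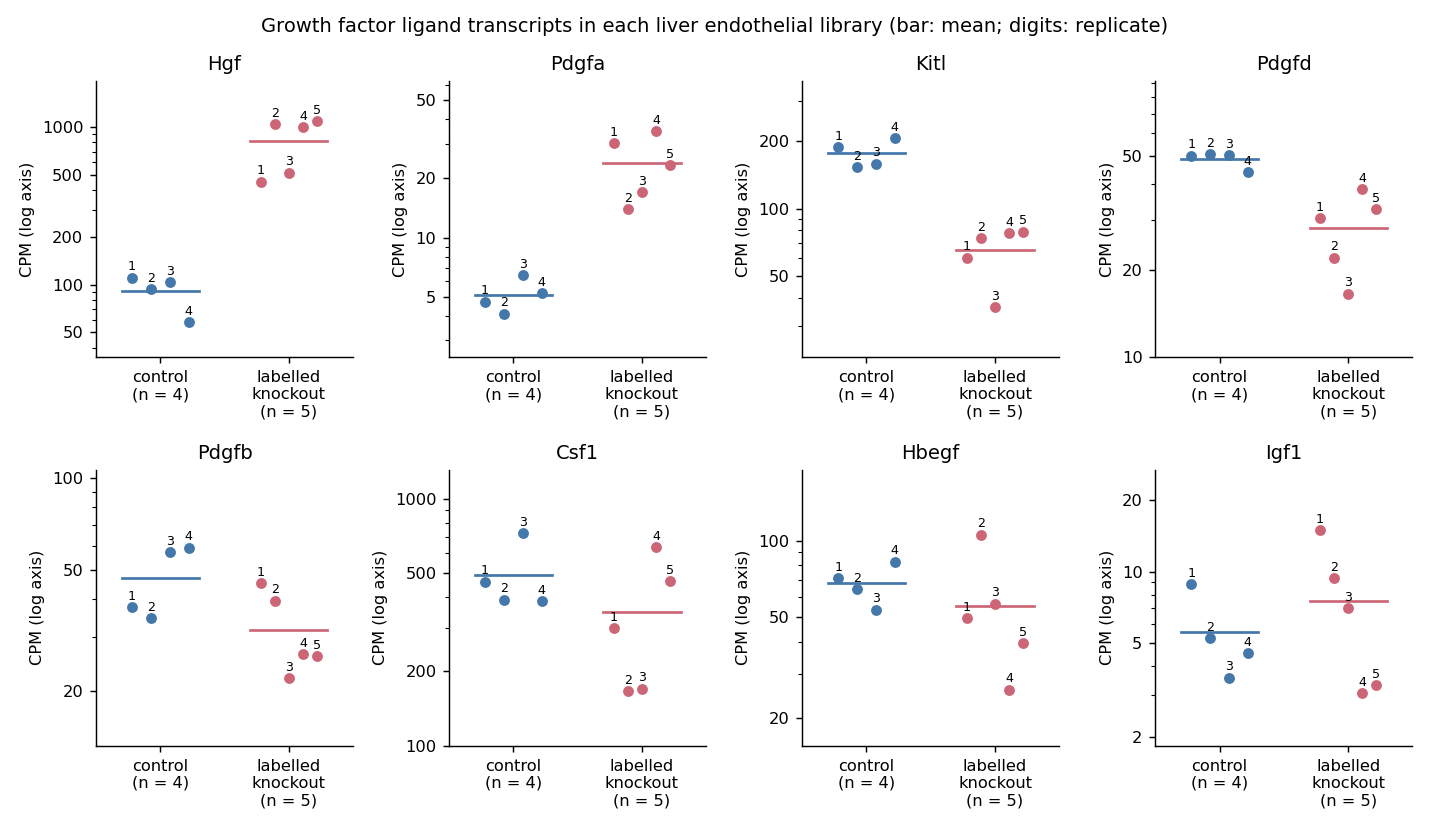
CPM of each of the 8 ligands (log axis, 1 panel per gene) in 4 control libraries (blue) and 5 libraries labelled knockout (red); digits are replicate numbers and bars are group means. The groups are separate for Hgf, Pdgfa, Kitl and Pdgfd and overlap for the other 4.

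To show the sequence next to the start of a ligand that rose and of one that fell, the 250 bases before the RefSeq transcript start are given for Hgf (GRCm38.p6, chr5:16553245-16553494, plus strand) and Pdgfd (chr9:6168236-6168485, plus strand), 5′ to 3′, with capitals marking GGAA or its reverse complement TTCC, the core of ETS binding sites.
Hgf: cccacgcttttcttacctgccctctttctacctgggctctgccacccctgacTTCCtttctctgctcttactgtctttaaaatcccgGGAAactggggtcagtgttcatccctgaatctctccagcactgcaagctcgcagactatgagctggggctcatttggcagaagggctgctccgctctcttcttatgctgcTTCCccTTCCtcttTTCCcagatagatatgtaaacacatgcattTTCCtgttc
Pdgfd: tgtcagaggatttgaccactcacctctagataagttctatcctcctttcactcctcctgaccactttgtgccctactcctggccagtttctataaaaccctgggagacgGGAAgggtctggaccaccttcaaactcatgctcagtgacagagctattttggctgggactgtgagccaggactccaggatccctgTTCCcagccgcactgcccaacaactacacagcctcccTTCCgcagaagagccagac
The core occurred 6 times in this Hgf window and 3 times in the Pdgfd window. A second RefSeq start of Hgf had 4 matches, and the window of Igf1, which was not called, had 6. Of 32851 RefSeq promoter windows of this length, 93.4% hold it at least once, with a median of 3 matches. The longer forms CCGGAAGT and AGGAAGT, searched on both strands, are in 10.3% of the windows. The printed Hgf window held 1 match, to AGGAAGT read on the minus strand, and the other 7 windows looked at, the second of Hgf and that of Pdgfd included, held 0. Promoter entries of 6 of the 8 ligands were used, and windows that ran into an annotated exon are not printed. These matches are letters in a window, and no binding was measured here.

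Hgf, the hepatocyte growth factor (ENSMUSG00000028864, GRCm38 chromosome 5, 16553495 to 16620152, plus strand), rose most of the 8. Its level was 111, 93.8, 104 and 58.1 in the control libraries and 452, 1041, 515, 1002 and 1089 in the libraries labelled knockout. The lowest library labelled knockout stood above the highest control, and within the labelled group replicates 1 and 3 lay well below replicates 2, 4 and 5. Group means were 91.7 ± 23.5 (n = 4) and 819.8 ± 309 (n = 5), an 8.94-fold rise (log2 fold change 3.16 ± 0.34, SE, edgeR adjusted p = 2.16e-04). By mean CPM, Hgf went from place 2564 of 14583 genes in controls to place 127. Among the 1330 genes called higher that had at least 10 CPM in controls, its fold change took place 9. With replicates 2 and 3 left out of the labelled group, a choice made after the data were seen, the rise was 9.30-fold. An overlapping single-exon transcript of the same strand, Gm43489, shares 484 exon bases with Hgf and held at most 654 counts in a library, against 12816 to 33742 counts of Hgf in the libraries labelled knockout.

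Hbegf, a membrane-anchored EGF receptor ligand (chromosome 18, 36504927 to 36515805, minus strand), lay at 71.2, 64.4, 53.5 and 82.8 in controls and at 49.5, 105.7, 56.5, 25.96 and 39.6 in the libraries labelled knockout. Replicate 2 was above every control, and replicates 1, 4 and 5 were below every control. The log2 fold change was -0.29 ± 0.34 (SE, 95% interval -1.06 to 0.47, edgeR adjusted p = 0.556). Without replicates 2 and 3 the value was -0.82, and it then passed the threshold (edgeR adjusted p = 0.0295). Igf1, an insulin-like growth factor made mainly by hepatocytes (chromosome 10, 87858265 to 87937042, plus strand), had 83 to 424 counts per library and the lowest level of the 8 per kilobase of exon. Its level was 8.84, 5.22, 3.56 and 4.52 in controls and 14.96, 9.41, 6.99, 3.06 and 3.31 in the libraries labelled knockout, so the groups overlapped. The log2 fold change of 0.45 ± 0.48 (SE, 95% interval -0.63 to 1.53, edgeR adjusted p = 0.521) left room for a change in either direction.

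The 3 PDGF ligands moved unequally. Pdgfa, which encodes a ligand of PDGF receptor alpha (ENSMUSG00000025856, chromosome 5, 138976014 to 138997370, minus strand), was at 4.71, 4.09, 6.43 and 5.20 in controls and at 30.2, 13.9, 17.0, 34.9 and 23.4 in the libraries labelled knockout. All 5 stood above all 4 controls, with replicates 2 and 3 the lowest of the 5. The log2 fold change was 2.22 ± 0.29 (SE, edgeR adjusted p = 5.37e-04), a 4.67-fold rise from 5.11 ± 0.991 to 23.9 ± 8.75. An antisense gene, 6330403L08Rik, shares 813 exon bases with Pdgfa and was itself higher, 17.0 ± 5.39 against 7.96 ± 1.57 (log2 fold change 1.09 ± 0.26, SE). Whether counting used the strand is not stated in the labels, so reads of this pair cannot be told apart where they overlap.

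Pdgfb, the PDGF receptor beta ligand that endothelium presents to mural cells (ENSMUSG00000000489, chromosome 15, 79995874 to 80014977, minus strand), lay at 37.6, 34.6, 56.9 and 59.1 in controls and at 45.1, 39.6, 22.01, 26.4 and 26.02 in the libraries labelled knockout. Replicates 3, 4 and 5 were below every control, and replicates 1 and 2 were within the control range. The log2 fold change was -0.57 ± 0.25 (SE, 95% interval -1.12 to -0.01), with an unadjusted p of 0.0463 and an edgeR adjusted p of 0.116. Pdgfd, whose product needs removal of a CUB domain before it binds PDGF receptor beta (ENSMUSG00000032006, chromosome 9, 6168584 to 6378850, plus strand), lay at 50.2, 50.7, 50.3 and 43.8 in controls and at 30.4, 22.2, 16.6, 38.4 and 32.7 in the libraries labelled knockout. Every library labelled knockout was below every control. The fall was 1.74-fold (log2 fold change -0.80 ± 0.21, SE, edgeR adjusted p = 0.0193), and the call ended without control replicate 2 (edgeR adjusted p = 0.0519).

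Per kilobase of exon, the level of Pdgfb over that of Pdgfa was 5.98, 6.34, 6.64 and 8.52 in the controls and 1.12, 2.13, 0.968, 0.567 and 0.834 in the libraries labelled knockout. The ratio fell below 1 in replicates 3, 4 and 5. It follows from the values already given and was not tested.

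Kitl, which encodes KIT ligand (ENSMUSG00000019966, chromosome 10, 100015630 to 100100416, plus strand), fell. Its level was 188, 153, 158 and 205.5 in controls and 60.4, 73.9, 36.3, 78.0 and 78.8 in the libraries labelled knockout. The groups were far apart, and replicate 3 was the lowest. Means were 176 ± 24.7 and 65.5 ± 17.9, a 2.69-fold fall (log2 fold change -1.43 ± 0.21, SE, edgeR adjusted p = 0.00114). Csf1, the macrophage colony-stimulating factor (ENSMUSG00000014599, chromosome 3, 107741048 to 107760469, minus strand), varied widely, at 461, 390, 727 and 385 in controls and 299, 166, 170, 634 and 463 in the libraries labelled knockout. Replicates 1, 2 and 3 were below every control, with 2 and 3 the lowest of all 9 libraries. Replicates 4 and 5 lay inside the control range. The log2 fold change was -0.50 ± 0.41 (SE, 95% interval -1.42 to 0.41, edgeR adjusted p = 0.386), and -0.07 without replicates 2 and 3. Gene-level counts merge the membrane-bound and secreted forms that Kitl and Csf1 encode by splicing.

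**Figure D2:**
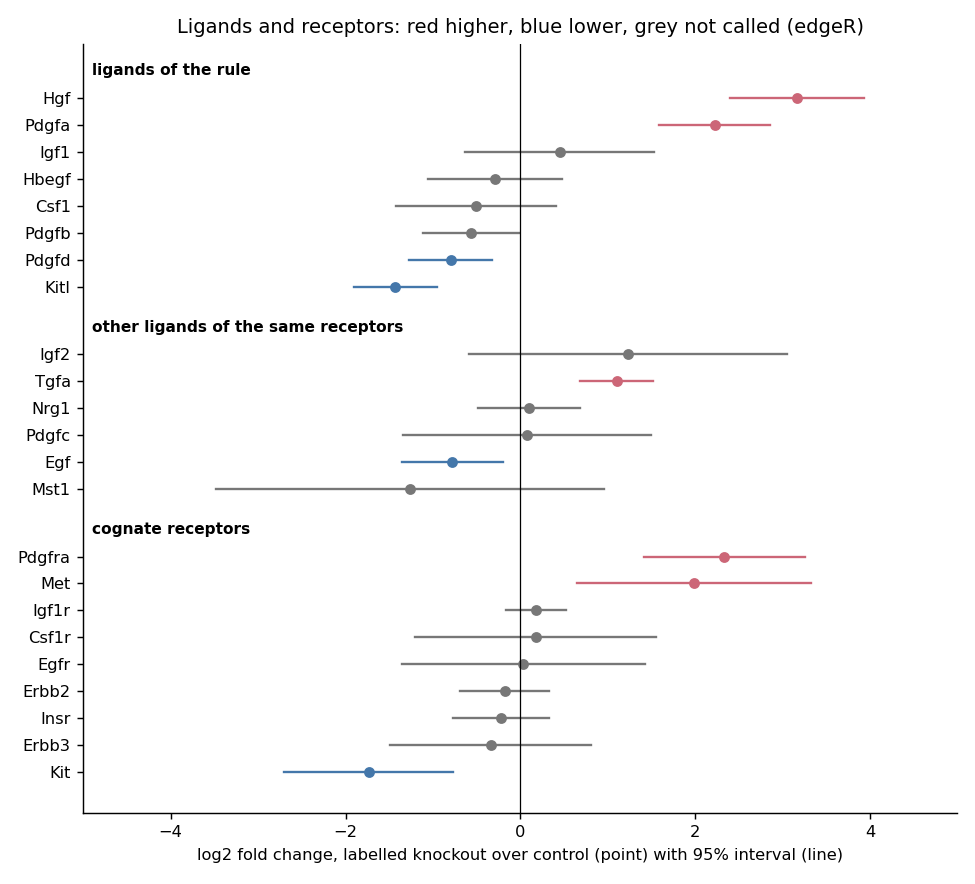
Log2 fold change, libraries labelled knockout over controls (points), with 95% intervals (lines), for the 8 ligands, 6 other ligands of the same receptors and 9 receptors that passed the count filter; red genes were called higher, blue lower and grey not called. Hgf at 3.16 lies at one end of the 8 ligands and Kitl at -1.43 at the other.

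Levels of different genes were compared per kilobase of exon (CPM per kb). In controls the order was Csf1 (92.9 ± 30.5), Kitl (29.8 ± 4.18), Pdgfd (15.5 ± 1.04), Hbegf (14.1 ± 2.53), Hgf (12.8 ± 3.27), Pdgfb (11.3 ± 3.06), Pdgfa (1.64 ± 0.318) and Igf1 (0.559 ± 0.233). The 4 from Pdgfd to Pdgfb had overlapping ranges, whereas Csf1, Kitl, that group of 4, Pdgfa and Igf1 followed one another without overlap. In the libraries labelled knockout Hgf came to the top at 114 ± 43.0, above Csf1 at 65.6 ± 38.1 in each of the 5 libraries, although the ranges of the 2 genes overlapped (62.9 to 151.5 and 31.5 to 120.1 CPM per kb). Hbegf (11.5 ± 6.28), Kitl (11.1 ± 3.03), Pdgfd (8.90 ± 2.75), Pdgfa (7.66 ± 2.80) and Pdgfb (7.64 ± 2.39) then lay within overlapping ranges, and Igf1 (0.762 ± 0.497) was again the lowest. Dividing by the longest transcript instead placed Hgf after Csf1 and Kitl in controls, at 26.4 ± 6.78 CPM per kb, and at the top of the libraries labelled knockout as before. With that length, Kitl (27.2 to 36.4 CPM per kb) overlapped Hgf (16.8 to 32.1) and Hbegf (18.5 to 28.6) in controls.

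Of the summed level per kb of the 8 ligands, Hgf made up 8.76%, 8.56%, 6.50% and 4.96% in the controls and 36.7%, 62.3%, 51.8%, 45.3% and 53.1% in the libraries labelled knockout. Csf1 went from 51.1% ± 7.52 to 27.9% ± 9.81 and Kitl from 17.1% ± 3.82 to 4.95% ± 0.704. The sum itself overlapped between the groups, at 178.6 ± 30.6 and 227.2 ± 72.3 CPM per kb. Shares of one total depend on each other, so these are descriptions. They used the length of all exons together (7.186 kb for Hgf). Shares with the longest transcript (3.468 kb for Hgf) were not computed and would differ.

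**Figure D3:**
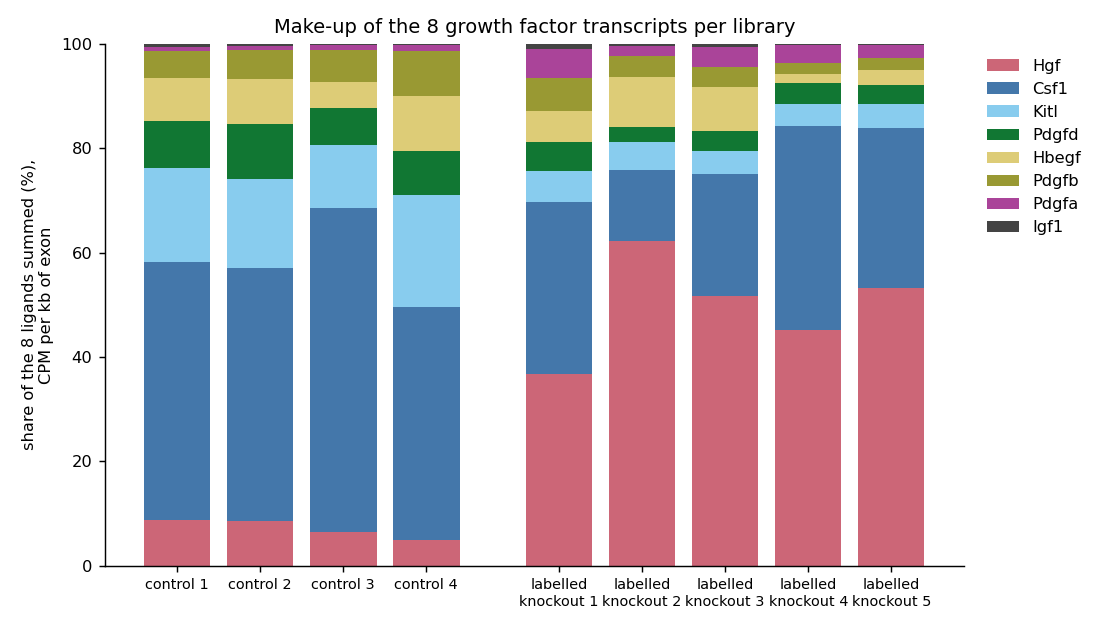
Share (%) that each of the 8 ligands took of their summed level, in CPM per kb of exon, 1 bar per library. Hgf takes between 4.96% and 8.76% of each control bar and between 36.7% and 62.3% of each bar of a library labelled knockout.

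Other ligands of the same receptors were mostly scarce: of 11 listed, 6 could be tested, 1 was higher and 1 lower, and the 6 had a median log2 fold change of 0.09, beside 0.01 over all genes tested. Tgfa, an EGF receptor ligand, lay at 54.0, 53.2, 87.9 and 75.7 in controls and at 143, 115, 130, 186 and 153 in the libraries labelled knockout. It rose without overlap between the groups (log2 fold change 1.10 ± 0.19, SE, edgeR adjusted p = 0.00216). Egf fell from 2.34 ± 0.211 to 1.36 ± 0.447 (edgeR adjusted p = 0.0485), on 32 to 81 counts per library, and the call was lost when any single control, or replicate 1, 3, 4 or 5 of the other group, was left out (edgeR adjusted p between 0.0645 and 0.116).

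Of 12 receptor genes listed for these ligands, 9 were tested, 2 were higher and 1 lower, with a median log2 fold change of 0.03. Kit, the receptor of KIT ligand, lay at 729, 774, 722 and 553 in controls and at 91.0, 169, 490, 149 and 145 in the libraries labelled knockout. All 5 were lower than all 4 controls, and replicate 3 kept the most. The fall was 3.32-fold (log2 fold change -1.73 ± 0.43, SE, edgeR adjusted p = 0.0147), so that both Kitl and Kit were lower in the same libraries. Without replicates 2 and 3 the log2 fold change of Kit was -2.43, and without a count filter its call ended (edgeR adjusted p = 0.0588).

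The other receptors were low or were not called. Pdgfra, a receptor of PDGF-A, rose from 0.381 ± 0.252 to 1.93 ± 0.547 (log2 fold change 2.33 ± 0.41, SE, edgeR adjusted p = 0.00262), on 7 to 85 counts per library. Met, the HGF receptor, had 6 to 13 counts in each control and 9 to 96 in each library labelled knockout. Its levels were 0.425, 0.312, 0.347 and 0.177 against 1.55, 1.39, 2.49, 0.331 and 0.468, which overlapped. Met passed the threshold (log2 fold change 1.99 ± 0.60, SE, edgeR adjusted p = 0.0325), but not when any single control, or replicate 1, 2 or 3 of the other group, was left out (edgeR adjusted p between 0.0506 and 0.0830), nor without replicates 2 and 3 together (0.119) or in limma-voom (0.0906).

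Pdgfrb, the PDGF-B receptor and a mural cell gene, was too low to test, at 0.178 ± 0.0840 and 0.397 ± 0.380. The neuregulin receptor Erbb4 had at most 3 counts in any library, and Egfr lay at 0.401 ± 0.210 and 0.414 ± 0.286. The IGF-1 receptor gene, Igf1r, was not called, at 111 ± 17.1 and 125.7 ± 24.6 (log2 fold change 0.18 ± 0.15, SE, 95% interval -0.16 to 0.52). Csf1r, the CSF-1 receptor of macrophages, lay at 55.6, 27.05, 11.7 and 35.0 in controls and 45.9, 84.7, 14.1, 25.8 and 11.9 in the libraries labelled knockout. Its order over the libraries was nearly that of the 8 Kupffer cell and macrophage markers, among which it is listed and whose sum ran from 80.5 to 347 in controls and from 71.2 to 537 in the libraries labelled knockout, highest in replicate 2 of the latter.

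Genes that cut pro-HGF or hold back its activators made up a list of 7, of which 5 were tested, 3 were higher and 1 lower (median log2 fold change 1.68). Hpn, hepsin, an HGF-activating membrane protease, rose from 4.70 ± 0.355 to 15.02 ± 1.36 (log2 fold change 1.68 ± 0.11, SE, edgeR adjusted p = 1.81e-05). The plasminogen activators Plau and Plat, which can also cut pro-HGF, rose 6.63-fold and 81.1-fold, and the rise of Plat was 20.4-fold without replicates 2 and 3. Hgfac, the circulating HGF activator, fell from 1.56 ± 0.335 to 0.611 ± 0.169 (edgeR adjusted p = 0.00523), on 13 to 65 counts per library. Spint2, an inhibitor of these proteases, lay at 60.6 ± 9.78 and 51.4 ± 11.8 and was not called, while Spint1 and the matriptase gene St14 were too low to test.

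Of 14 genes that process or shed the other ligands, all were tested, 5 were higher and 2 lower (median log2 fold change 0.17). Furin, which cuts PDGF-A and PDGF-B precursors, rose from 161 ± 15 to 312.6 ± 14.9 (log2 fold change 0.96 ± 0.08, SE, edgeR adjusted p = 6.76e-05), and the groups were far apart. Mmp14, a membrane metalloprotease, rose 1.95-fold, and Rhbdf1, which guides maturation of the sheddase ADAM17, rose 1.94-fold. Adam17 itself, named after its values were seen, was lower, at 100.4 ± 5.65 against 115.5 ± 4.69 (edgeR adjusted p = 0.0411). Adam12 and Adam10, also named after their values were seen, were higher without overlap between the groups. Adam12 rose from 25.2 ± 4.74 to 111 ± 70.7 (edgeR adjusted p = 0.00435) and Adam10 from 252 ± 19.1 to 337 ± 50.1 (edgeR adjusted p = 0.0277). Adam15 fell from 255 ± 40.6 to 112 ± 22.7 (log2 fold change -1.18 ± 0.16, SE, edgeR adjusted p = 7.25e-04). Only 1 gene of this list was lower when control replicate 1, 2 or 3, or replicate 2, 4 or 5 of the other group, was left out.

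Of 12 genes for IGF binding proteins and their regulators, 9 were tested, 2 were higher and 1 lower (median log2 fold change 1.51). This median is the value of Igfbp6, which was not called, at 0.264 ± 0.0646 and 0.753 ± 0.848. Its highest level, 2.25, was in replicate 2 of the libraries labelled knockout. Igfbp4, one of the most abundant, fell from 1513 ± 113 to 1073 ± 205 (edgeR adjusted p = 0.0298), and the call was lost when control replicate 1, 2 or 3, or replicate 2, 4 or 5 of the other group, was left out (edgeR adjusted p between 0.0532 and 0.0855). Igfbp5 lay at 18.4, 13.6, 10.998 and 38.2 in controls and at 167, 556, 326, 26.96 and 35.6 in the libraries labelled knockout, with replicates 4 and 5 inside the control range. Stc1, a stanniocalcin that inhibits an IGF binding protein protease, was at 130 and 221 in replicates 2 and 3 and at no more than 6.32 in replicates 1, 4 and 5, against 0.441 to 2.98 in controls. Without replicates 2 and 3 the log2 fold change of Igfbp5 was 1.92 in place of 3.45 and that of Stc1 1.02 in place of 5.67, and neither was called (edgeR adjusted p = 0.0881 and 0.385). Both calls were also lost when control replicate 1, 2 or 3 was left out (edgeR adjusted p between 0.0596 and 0.0981). That of Stc1 was lost too when control replicate 4 (edgeR adjusted p = 0.0647) or replicate 2 (0.0699) or 3 (0.0704) of the other group was left out.

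Heparan sulfate chains hold HGF, HB-EGF and PDGF-B near the cell that makes them. Of 16 genes for these chains and their carriers, all were tested, 4 were higher and 1 lower (median log2 fold change 0.03). Hspg2, perlecan, a basement membrane proteoglycan, fell from 2518 ± 134 to 1480 ± 218 (log2 fold change -0.77 ± 0.13, SE, edgeR adjusted p = 0.00225). Hs6st1, a 6-O-sulfotransferase, rose from 123.1 ± 13.3 to 246.4 ± 63, Ext1, a chain polymerase, rose 1.52-fold, and Sdc4, a syndecan, rose from 16.3 ± 3.24 to 33.4 ± 10.8. Sulf2, a sulfatase, rose from 1.63 ± 0.859 to 6.13 ± 3.33 (edgeR adjusted p = 0.0230), though the groups overlapped. Gpc1, a glypican, lay lower without overlap but missed the threshold (edgeR adjusted p = 0.0533). Sulf2 and Gpc1 were named after their values were seen.

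Feedback genes that receptor tyrosine kinase signalling induces were 14, all tested, with 4 higher and 1 lower (median log2 fold change 0.50). Spred2 rose from 97.3 ± 9.50 to 230 ± 34.4 and Spred1 from 102 ± 10.8 to 147.5 ± 6.31, both inhibitors of the Ras and ERK pathway (edgeR adjusted p = 1.22e-04 and 0.00128). Etv5, an ETS factor downstream of ERK, rose 1.55-fold (edgeR adjusted p = 0.0271), and Dusp6, an ERK phosphatase, fell 1.32-fold (edgeR adjusted p = 0.0280). The Etv5 call was lost when control replicate 1, 2 or 3, or replicate 1 or 5 of the other group, was left out (edgeR adjusted p between 0.0528 and 0.0767). The Dusp6 call was lost when control replicate 1 or 2, or replicate 3, 4 or 5 of the other group, was left out (edgeR adjusted p between 0.0510 and 0.0837), and when replicates 2 and 3 of that group were left out together (0.0626).

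**Figure D4:**
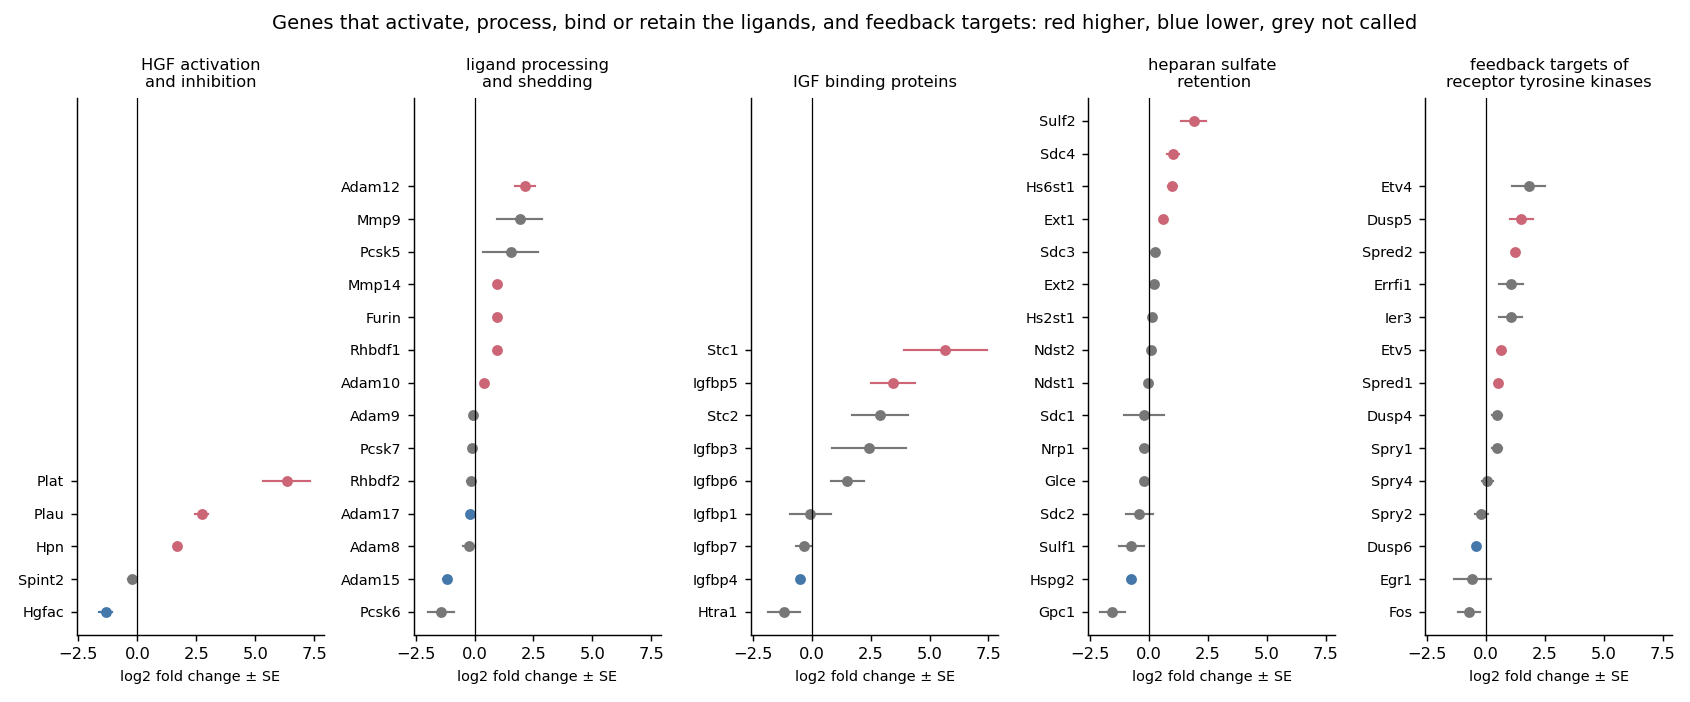
Log2 fold change, libraries labelled knockout over controls, with its SE, for every tested gene of 5 lists, 1 panel per list; red genes were called higher, blue lower and grey not called. Among genes for HGF activation, Plat, Plau and Hpn lie to the right and Hgfac to the left, and Hspg2 lies to the left among heparan sulfate genes.

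Over the 7 lists together, 21 of 73 tested genes were higher (28.8%) and 8 lower (10.96%), beside 14.5% and 14.8% of all genes tested. The lists were chosen with earlier results known, so these shares are a description. With replicates 2 and 3 of the labelled group left out, 17 were higher and 10 lower. The lower genes then numbered 3 in place of 1 for heparan sulfate, 2 in place of 1 for feedback genes and for other ligands, and 1 in place of 2 for processing, the higher receptors 1 in place of 2, and no IGF binding protein gene was called.

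Markers of other liver cells were summed per library. Among 12 hepatic stellate cell and fibroblast markers, cells that make Hgf in the normal liver, the sum ran from 94.1 to 163.7 in controls and from 181 to 364 in the libraries labelled knockout, and nearly all of it was Ecm1 (116 ± 31.5 and 279.6 ± 77.6). The other 11 summed to 14.7, 10.9, 4.29 and 10.3 in controls and to 13.8, 26.7, 21.1, 5.34 and 4.91 in the libraries labelled knockout. With Ecm1, the 12 summed to 263, 332, 181, 364 and 329 in replicates 1 to 5 of the labelled group. That sum, like Hgf, was higher in replicates 2, 4 and 5 than in replicates 1 and 3. The 11 without Ecm1 did not follow Hgf from library to library. Hgf was at 1041 in replicate 2, where these 11 were at their highest of all 9 libraries. It was at 1002 and 1089 in replicates 4 and 5, where the 11 were at their lowest of the labelled group. Among them Colec11, a collectin of stellate cells, rose from 0.809 ± 0.113 to 5.07 ± 3.94 (edgeR adjusted p = 0.0147), and Dcn, decorin, was at 2.40 ± 0.942 and 3.96 ± 3.95 and was not called. Lrat, Des and Reln, which define quiescent stellate cells, had means of at most 0.588 in both groups and were not called. The part of these cells in the rise of Hgf was not tested. The 7 mural and smooth muscle markers other than Kcnj8 summed to between 2.62 and 5.94 in controls and to between 1.47 and 14.3 in the libraries labelled knockout, and Cnn1 was at 0 in the controls. Leaving out Ecm1 and Kcnj8 was chosen after their values were seen.

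The 6 platelet and megakaryocyte markers summed to between 22.7 and 36.5 in controls and to between 63.8 and 137.1 in the libraries labelled knockout. Of the 5 tested, 4 were higher, led by Itga2b (26.4 ± 6.37 and 79.5 ± 30.4) and Pf4 (2.76 ± 0.642 and 24.8 ± 3.18). Lymphocyte and neutrophil markers summed to between 1.48 and 8.09 and to between 9.12 and 23.7. Both sums were higher in every library labelled knockout than in any control, as Hgf and Pdgfa were, and their part in those results was not tested. Hepatocyte markers, led by Alb, summed to between 153 and 356 in controls and to between 17.6 and 199.9 in the libraries labelled knockout, and cholangiocyte and mesothelial sums overlapped. Of 8 liver endothelial markers, Tek and Clec4g were lower and 6 were not called. The sum of the 8 ran from 20056 to 22729 in controls and from 12419 to 17947 in the libraries labelled knockout. Lyve1, not called (edgeR adjusted p = 0.200), ran from 815 to 1191 in controls. It was at 14.5, 937, 260, 29.5 and 28.1 in the libraries labelled knockout. Oit3 lay lower and missed the threshold (edgeR adjusted p = 0.0566). Lyve1 and Oit3 were named after their values were seen.

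**Figure D5:**
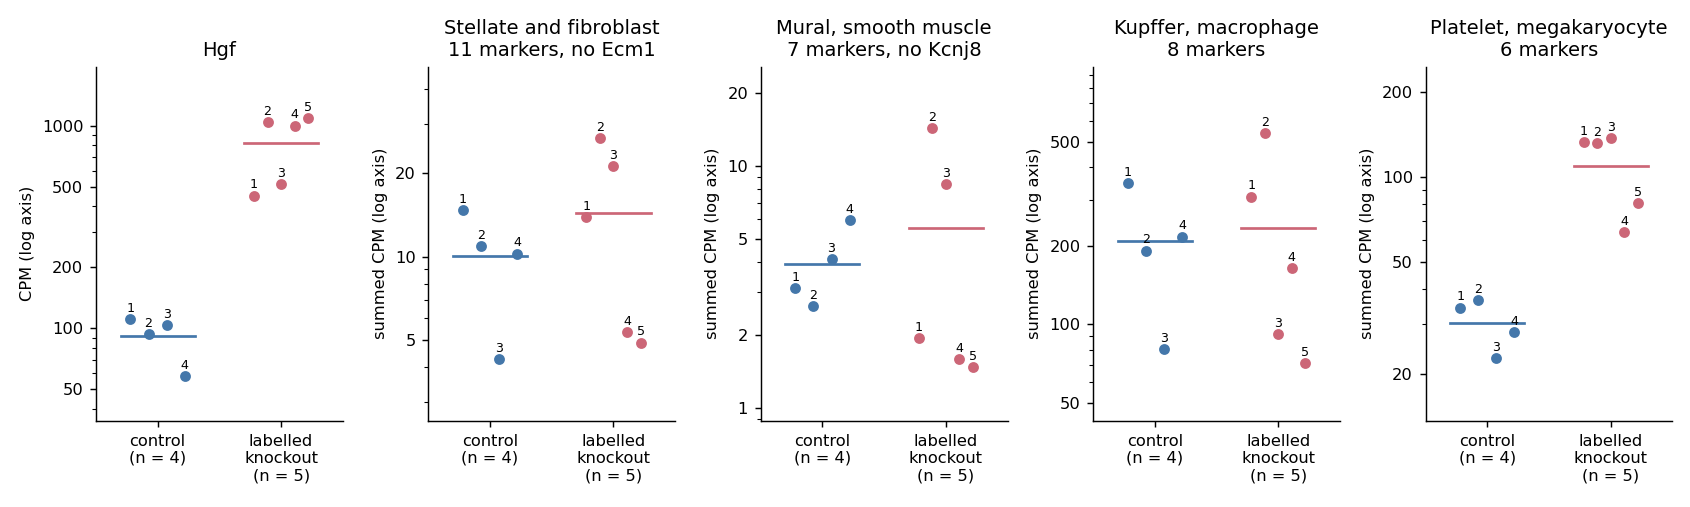
CPM of Hgf and summed CPM of marker genes of 4 other cell types (log axes) in each library; digits are replicate numbers and bars are group means. Without Ecm1 and Kcnj8, the stellate and mural sums are highest in replicate 2 and low in replicates 4 and 5 of the libraries labelled knockout, where Hgf is at 1041, 1002 and 1089. With Ecm1, the stellate sum, not plotted, lies above every control in all 5 libraries labelled knockout. Like Hgf, it is higher in replicates 2, 4 and 5 than in replicates 1 and 3. The platelet and megakaryocyte sum lies above every control in all 5.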

How the data were processed

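RNA was sequenced from 9 libraries of sorted mouse liver endothelium. The authors deposited raw counts per Ensembl gene (52636 rows), and FastQC 0.11.5, STAR 2.7.6a and GRCm38 are named per the submitters' processing notes. Per the labels' protocols, polyadenylated RNA was made into libraries with an unstranded or a stranded kit, without saying which. For the counting program and its use of strand, nothing is given in the sources used here. Groups came from the sample titles, and 0 columns were left unused. Library pairs within a group differed by 20.3 to 182 in chi-square per degree of freedom, so none was taken for a copy.

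Symbols, positions and exon lengths came from GENCODE M21 (GRCm38). After filterByExpr (minimum count 10, minimum total 15), 14583 genes were scaled by TMM and fitted in edgeR 4.0.16 under R 4.3.3 (robust quasi-likelihood, no covariate), and p-values were adjusted by Benjamini-Hochberg over all of them. SE is the size of the log2 fold change over the square root of F. The script was tested on simulated data. Alternatives were DESeq2 1.42.0, limma 3.58.1 voom, 3 other scalings, 2 other filters, a block on replicate number, each library left out in turn and, added after seeing the data, a sex term (sex read from Xist and Ddx3y) and the labelled group without its replicates 2 and 3.

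The members and lists were chosen with earlier results of these data known. Genes were named by a rule: the 8 ligands, 8 of their receptors, the targeted and sorted genes, up to 4 called genes of each list with the smallest p, the highest markers, and the 5 genes most like Hgf. Lists are described by counts and medians.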

Additional observations from a re-analysis of the deposited data

Results flagged for a closer look

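Beside the members, 33 other named genes were looked at in both groups, 82 groups in all, and 4 held a library whose gap to its nearest neighbour was large for the range of its group (Dixon's ratio above the 95% critical value). Chance flags about 1 in 20 groups, so 4 of 82 is close to what chance gives. Pdgfd in control replicate 4 was 43.8 CPM, with the next control at 50.2. Kit in replicate 3 of the libraries labelled knockout was 489.7 CPM, with the next at 169. Furin in replicate 1 of the same group was 338.5 CPM, with the next at 311. Hs6st1 in replicate 3 was 353.6 CPM, with the next at 238.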

How the results depend on the processing

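Of the 8 ligands, the calls of Hgf, Pdgfa and Kitl and the missed threshold of Pdgfb, Csf1 and Igf1 held in all 19 alternatives of the test. Pdgfd lost its call in 1 of them, without control replicate 2, and its log2 fold change ran from -0.94 to -0.65 when 1 library was left out. Hbegf passed in 1, with replicates 2 and 3 of the labelled group left out (-0.82). Deviations of same-numbered libraries had correlations of 0.29, -0.03, -0.02 and -0.33. The sample titles name no pairs, and these few values cannot tell whether any exist. The fit with a replicate block called 1296 higher and 1375 lower genes in place of 2110 and 2161, kept all 4 ligand calls, and left 3 lower genes in the 7 other pathway lists in place of 8. That count was 5 with library totals only and 5 without a count filter, and 4 to 9 without 1 library. For the other named genes, 503 of 583 values over alternatives kept direction and call, 65 lost the call and 15 changed sign. Values near 0 that were never called changed sign. Leaving out 1 library gave -0.067 to 0.023 for Cdh5, -0.30 to 0.37 for Egfr and -0.40 to 0.57 for Csf1r. Library totals only gave 0.043 for Cdh5, limma-voom gave -0.24 for Egfr and -0.018 for Csf1r, and the labelled group without replicates 2 and 3 gave 0.055 for Cdh5, -0.0040 for Igf1r and -0.21 for Csf1r. Fli1 was higher but not called under the block (edgeR adjusted p = 0.0639). Sex, read from Xist and Ddx3y, was female in 1 control and 3 libraries labelled knockout, and male in 3 and 2. With a sex term, Egf, Igfbp4 and Stc1 kept their direction and lost their calls (edgeR adjusted p = 0.0921, 0.0685 and 0.0574). Of the 5 genes most like Hgf by Pearson's r, 2 were among the 5 highest by Spearman's rho. The cause was not tested. Met, Egf and Hgfac rest on at most 96 counts per library, which limits their precision. Pdgfra, on at most 85, kept its call in all 18 alternatives that tested it.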

Other observations

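Of 8274 genes with a group mean of at least 10 CPM in both groups, unnamed gene models left out, the ones whose deviations from their group means followed Hgf most closely over the 9 libraries were Khk, a fructose-metabolising kinase (Pearson r = 0.977), Usp3, a deubiquitinase (0.971), Pcid2 (0.9505), Dnajc4 (0.9502) and Igsf3 (0.945), and 16 genes reached an r of 0.9. These are the highest of many values over few libraries that share scaling and depth, and are given as a description. The group difference is taken out of this measure: Khk fell from 24.2 ± 4.76 to 12.4 ± 4.12 CPM while Usp3 rose from 55.8 ± 2.43 to 90.3 ± 8.90 CPM, and Dnajc4 and Igsf3 were not called.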
